A study of Mus musculus with 6 samples.

Results

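The contacts described here were seen together with the *Mpg* promoter by Tri-C in mouse erythroid cells, either with both CTCF sites HS-38 and HS-39 (WT) or without them (D3839). They are 6 of the 12 contact tables analysed for the series, 3 WT and 3 D3839 replicates, and the other 6 were made from the R2 enhancer. All contacts with both fragment midpoints between 32070001 and 32250000 on chromosome 11 of mm9 were taken, without the viewpoint stretch from 32125000 to 32128000. This left 94127 contacts, from 10237 to 16295 per WT replicate and from 18040 to 18951 per D3839 replicate. The positions compared are all 1 kb bins of the region and 7 elements: the CTCF site HS-29, the enhancers R2, R3 and Rm, and the promoters of *Hba-x*, *Hbq1b* and *Hbq1a*.

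Both groups are Ter-119+ cells picked with beads from the spleen. The mice were C57BL/6 females given phenylhydrazine, a drug that destroys red cells and fills the spleen with erythroid precursors. In D3839 mice both sites had been deleted with TALEN and CRISPR-Cas9. How many animals stand behind a replicate is not given in the sources used here. The tables hold DNA contacts only, so the labelled cell type could not be checked against its marker genes. The library reagents differed between WT and D3839, so their part and that of genotype cannot be told apart in any comparison below.

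CTCF is a zinc-finger protein that binds a directional DNA motif and halts the cohesin complex while it extrudes loops of chromatin, so that pairs of bound sites mark the borders of contact domains. The α-globin cluster holds the embryonic gene *Hba-x*, the adult genes *Hba-a1* and *Hba-a2* and the theta genes *Hbq1b* and *Hbq1a*. Its enhancers R1, R2, R3 and Rm lie within the neighbouring gene *Nprl3*. *Mpg*, which encodes a DNA repair glycosylase, lies on the other side of HS-38 and HS-39 from the enhancers. Tri-C cuts crosslinked chromatin with NlaIII and keeps reads that hold the viewpoint and at least 2 more fragments, called reporters, so that each contact pairs reporters seen with *Mpg* on the same allele.

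Sequences are given for motif matches at the CTCF-related positions and for the theta promoters. In mm9, part of the CTCF motif (CC, any 3 bases, AG, any 2 bases, GG) was searched on both strands. Matches occur in 91 of the 180 bins of 1 kb (50.6%). The HS-38/-39 bins, from 32137001 to 32139000, hold 2 matches. The first, at chr11:32137006-32137034 in an exon of *Nprl3*, reads on the plus strand and the second, at chr11:32138649-32138677 in an intron, on the minus strand. Whether they are the deleted motifs was not tested. The HS-29 bin holds 1 match at chr11:32147731-32147759 on the plus strand, in an *Nprl3* intron. Whether this match is the CTCF site HS-29 was not tested either. Each match is labelled by its bin and written 5′ to 3′ on its own strand with the matched letters in capitals.
HS-38/-39 first: tgcaacaggCCTTCAGATGGcagaattat
HS-38/-39 second: accctgaggCCACCAGAGGGtagcagagg
HS-29: cttggatttCCTCGAGTGGGaagaggcaa
The bins of *Hbq1b* and *Hbq1a* hold 3 and 2 matches, and the one nearest each start site lies just before it on the minus strand. The 96 bases shown from the plus strand are the same at 96 of 96 positions in *Hbq1b* (chr11:32186865-32186960) and *Hbq1a* (chr11:32199970-32200065), whose starts lie 13.1 kb apart. The capitals mark the matched letters as they read on the plus strand.
Hbq1b and Hbq1a: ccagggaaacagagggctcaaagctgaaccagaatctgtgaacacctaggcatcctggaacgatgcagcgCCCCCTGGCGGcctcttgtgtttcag

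Each contact has 2 reporter ends, and each matrix was scaled by its own total, so a rise in one place must be met by a fall elsewhere. The matrices held from 32.8% to 41.2% of all chromosome 11 contacts in WT and from 49.4% to 53.8% in D3839. Contacts between neighbouring NlaIII fragments were from 43.9% to 49.9% of the matrix in WT and from 34.8% to 43.0% in D3839. The part of either difference in the results below was not tested beyond the settings named beside them. Contacts from 1 read depend on each other, and the floors of 3 counts, from 0.00792% to 0.0147% of ends, cover counting error only. No contact falls on the fragment that holds R2 (32150926 to 32151102) nor on the fragment from 32137188 to 32137324 beside the first HS-38/-39 match, and 1 bin, that of R4, holds no fragment midpoint.

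In D3839, ends rose as shares of the matrix in bins scattered between the deleted sites and *Hbq1a*, and fell in bins from *Hbq1a* on. Of 176 bins of 1 kb tested, 18 rose (10.2%) and 17 fell (9.66%) by edgeR (quasi-likelihood, adjusted p under 0.05). All 18 that rose lie between HS-38/-39 and *Hbq1a*, and 0 of the 9 bins between *Mpg* and the deleted sites rose. Of the 17 that fell, 14 lie from the *Hbq1a* bin to the end of the region and 3 lie in the outer upstream flank, from 32084001 to 32090000. In all 35 the shares of the WT and D3839 replicates did not overlap. Between HS-38/-39 and *Hbq1a*, 59 of 62 tested bins had a fold change above 1 in D3839, with a median log2 fold change of 0.62. From the *Hbq1a* bin on, 50 of 50 had one below 1, with a median of -0.88. Scaled by all chromosome 11 contacts, the numbers were 62 of 62 bins above 1 and 42 of 50 below 1, and 63 bins rose and 6 fell. Between *Mpg* and the deleted sites 9 of 9 bins were above 1 on both scales. Their median log2 fold changes were 0.13 on the main scale and 0.61 on that of all chromosome 11 contacts.

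**Figure D1:**
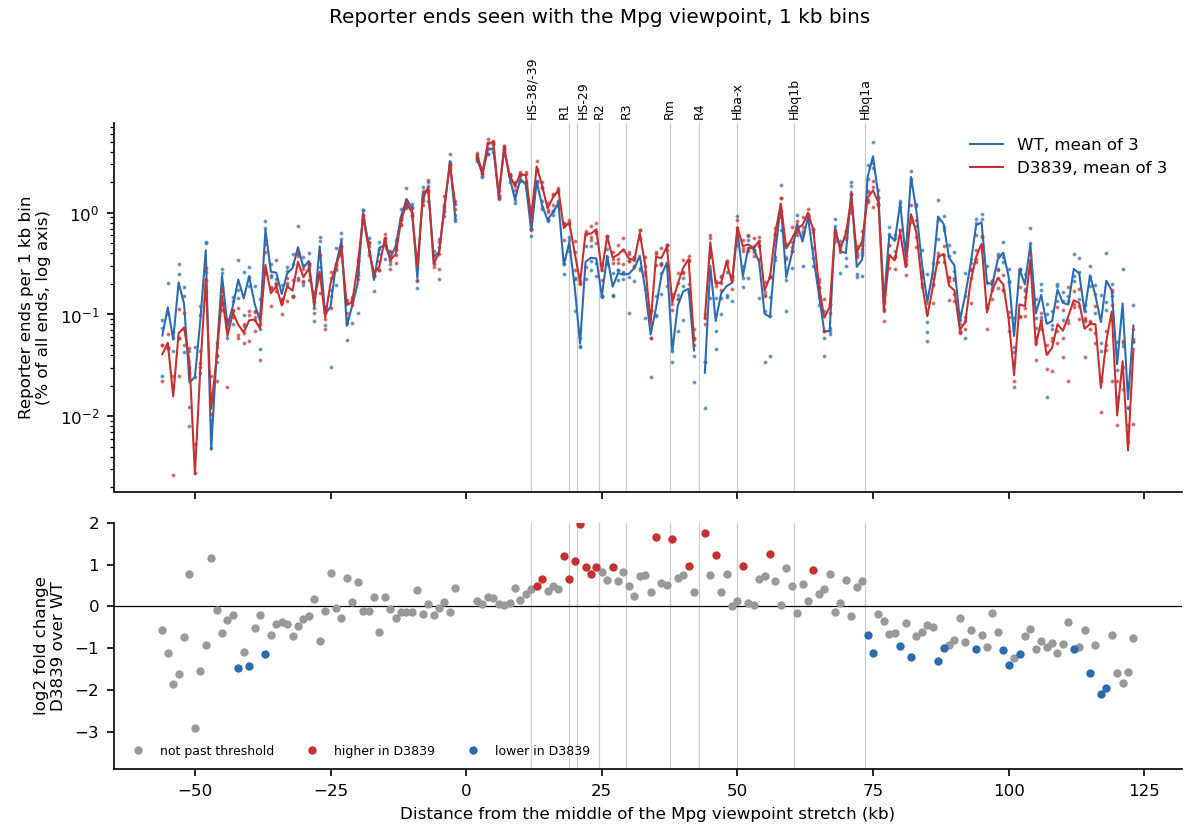
Reporter ends per 1 kb bin as a percentage of all ends (upper plot, log axis; points are the 3 replicates of each genotype, lines their means, values of 0 not drawn) and log2 fold change of D3839 over WT from edgeR (lower plot), against the distance in kb from the middle of the viewpoint stretch. The 18 bins that rose lie between HS-38/-39 and *Hbq1a*, and 14 of the 17 that fell lie from *Hbq1a* on.

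The bin of HS-29, from 32147001 to 32148000, had the smallest p among those that rose. Its WT replicates 1, 2 and 3 held 12, 10 and 19 ends, and its D3839 replicates 78, 77 and 72. As shares these were 0.0518% ± 0.00566 and 0.206% ± 0.00628 (SD, n = 3), a log2 fold change of 1.97 (SE 0.364, edgeR adjusted p = 0.00276). The WT and D3839 replicates of this bin were far apart and close among themselves, although only 2 fragment midpoints fall in it. The next bin, from 32148001, rose by a log2 fold change of 0.93 (edgeR adjusted p = 0.0285). On the near side of R1, the bin from 32144001 rose from 0.306% ± 0.0527 to 0.709% ± 0.144 of ends (SD, n = 3, log2 fold change 1.20, edgeR adjusted p = 0.00578). The 2 bins from 32139001 to 32141000, directly behind the deleted sites, rose by log2 fold changes of 0.50 and 0.66.

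Within the enhancer cluster, the bin of Rm (32164001) rose from 0.0433% ± 0.00924 to 0.132% ± 0.0243 of ends (SD, n = 3, log2 fold change 1.61, edgeR adjusted p = 0.0181). A bin between R3 and Rm (32161001), also inside *Nprl3*, rose by a log2 fold change of 1.66 (edgeR adjusted p = 0.0029), and the bin with the start of *Nprl3* (32167001) by 0.96. Nearer the globin genes, the bin from 32177001, in the body of *Hba-x*, rose from 0.237% ± 0.0565 to 0.47% ± 0.0626 (SD, n = 3, log2 fold change 0.97, edgeR adjusted p = 0.0226). The farthest named bin that rose starts at 32190001, between *Hbq1b* and *Hba-a2*, with a log2 fold change of 0.87. With same-bin pairs left out, these last 2 bins had log2 fold changes of 0.36 and 0.48 and were not called (adjusted p = 0.334 and 0.154), and each lost its call in 4 of 6 fits with 1 replicate left out. In those fits the call was also lost in 4 of 6 at 32148001 (log2 fold changes 0.73 to 1.28), in 3 of 6 at 32139001 and in 2 of 6 at each of 32140001, 32164001 and 32167001. The calls at 32139001, 32140001, 32148001 and 32167001 were also lost without same-bin pairs, and those at 32144001, 32147001, 32161001 and 32164001 were kept. With fragment pairs counted once, the bin from 32177001 was at 0.52 and not called (edgeR adjusted p = 0.0759). With neighbouring fragments left out, the bin from 32167001 was at 0.82 and not called (edgeR adjusted p = 0.0697).

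The bin with the smallest p among those that fell starts at 32208001, past *Hbq1a*, and went from 2.25% ± 0.271 to 0.968% ± 0.194 of ends (SD, n = 3, log2 fold change -1.22, edgeR adjusted p = 7.27e-04). The bin from 32201001, next to *Hbq1a*, held from 2.76% to 4.97% of ends in the WT replicates and from 1.15% to 2.03% in D3839, a log2 fold change of -1.12. The named bins farther out, at 32206001, 32213001, 32214001, 32220001, 32226001 and 32241001, had log2 fold changes between -1.59 and -0.94. On the scale of all chromosome 11 contacts, the calls at 32201001 (log2 fold change -0.66), 32206001 (-0.45), 32214001 (-0.53) and 32220001 (-0.54) were lost. With same-bin pairs left out, those at 32226001 (adjusted p = 0.0768), 32241001 (0.0552) and, upstream, 32086001 (0.075) were lost. That at 32226001 was also lost with neighbouring fragments left out (edgeR adjusted p = 0.0917). Without D3839 replicate 1 those at 32201001, 32213001, 32214001, 32220001, 32226001, 32241001, 32086001 and 32089001 were lost (adjusted p = 0.0532 to 0.0961), and those at 32206001 and 32208001 were kept. Upstream, the bins from 32086001 and 32089001 fell by log2 fold changes of -1.44 and -1.15. They lie just past and within the 3′ part of *Il9r*, which encodes the interleukin 9 receptor. The second was not called on the scale of all chromosome 11 contacts (-0.65). With fragment pairs counted once, the first was at -0.78 and not called (edgeR adjusted p = 0.0545). The number of bins called rests on single libraries. Without WT replicate 1, 2 or 3, 9, 11 and 33 bins rose, and without D3839 replicate 1, 2 or 3, 3, 4 and 7 did. The number that fell was 36 without WT replicate 3 and 2 without D3839 replicate 1.

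Windows of 5 bins were then summed around each element. The window of HS-29, which also covers R1, held 1.75%, 1.07% and 1.49% of ends in WT and 2.43%, 2.83% and 2.75% in D3839. No WT replicate reached the lowest D3839 replicate, with a log2 fold change of 0.89 (SE 0.179, edgeR adjusted p = 0.00439). The window of R2, a major α-globin enhancer, held 1.73%, 1.26% and 1.72% in WT and 2.81%, 2.90% and 2.67% in D3839. Because the fragment that holds R2 has no contacts, this window and the R2 counts below rest on flanking fragments. Again the groups did not overlap, with a log2 fold change of 0.83 (SE 0.158, edgeR adjusted p = 0.0029), and the window shares 2 bins with that of HS-29. With fragment pairs counted once, the log2 fold changes of HS-29 and R2 were 0.55 and 0.47 (edgeR adjusted p = 0.00218 each). On the scale of all chromosome 11 contacts they were 1.35 and 1.29 (edgeR adjusted p = 0.00181 and 0.00145).

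R3 held 1.04%, 1.34% and 1.87% of ends in WT and 2.01%, 2.30% and 2.16% in D3839, a log2 fold change of 0.60 (SE 0.197, edgeR adjusted p = 0.0383). Rm held 0.630%, 0.918% and 1.16% in WT and 1.51%, 1.45% and 1.36% in D3839, a log2 fold change of 0.67 (SE 0.217, edgeR adjusted p = 0.0359). For both enhancers the lowest D3839 replicate exceeded the highest WT replicate, but with TMM normalization the adjusted p was 0.066 for R3 and 0.06 for Rm, and 0.061 for Rm in a fit with replicate numbers as blocks. The call was lost in 5 of 6 fits with 1 replicate left out for R3 and in 4 of 6 for Rm.

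At the genes the windows, which reach beyond the promoters, differed from one to the next. The *Hba-x* window held 1.59%, 1.38% and 2.27% of ends in WT and 2.30%, 2.25% and 2.11% in D3839 (log2 fold change 0.34, edgeR adjusted p = 0.155). WT replicate 3 lay within the D3839 range, and the groups overlapped. The *Hbq1b* window, which takes in the end of *Hba-a1*, held 3.04%, 2.02% and 4.31% in WT and 3.01%, 4.37% and 3.70% in D3839 (log2 fold change 0.24, edgeR adjusted p = 0.406). These replicates overlapped widely. Both values rest on single libraries. The *Hba-x* window was called without WT replicate 3 (0.58, adjusted p = 0.00642) and had a log2 fold change of 0.20 without WT replicate 2, and the *Hbq1b* window was called without WT replicate 3 (0.54, adjusted p = 0.0201) and had one of 0.0070 without WT replicate 2. The *Hbq1a* window, the most contacted of the 7, held 7.25%, 6.61% and 9.94% in WT and 5.37%, 4.72% and 5.71% in D3839. The gene ends at 32200873, and the window reaches on to 32203000. It thus takes in the bin from 32201001, whose large share and fall are given above, and is not a measure of the promoter alone. The window fell in all D3839 replicates, by a log2 fold change of -0.59 (SE 0.137, edgeR adjusted p = 0.00794), and was not called without D3839 replicate 1 (adjusted p = 0.0778). On the scale of all chromosome 11 contacts this fall was not called (log2 fold change -0.13, adjusted p = 0.623), and *Hba-x* rose (0.80, adjusted p = 0.0249). In the *Hbq1b* and *Hbq1a* windows 11 of 30 and 5 of 52 fragments have a near copy elsewhere in the region. Which copy such reads came from is uncertain, and their part in these shares was not tested.

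**Figure D2:**
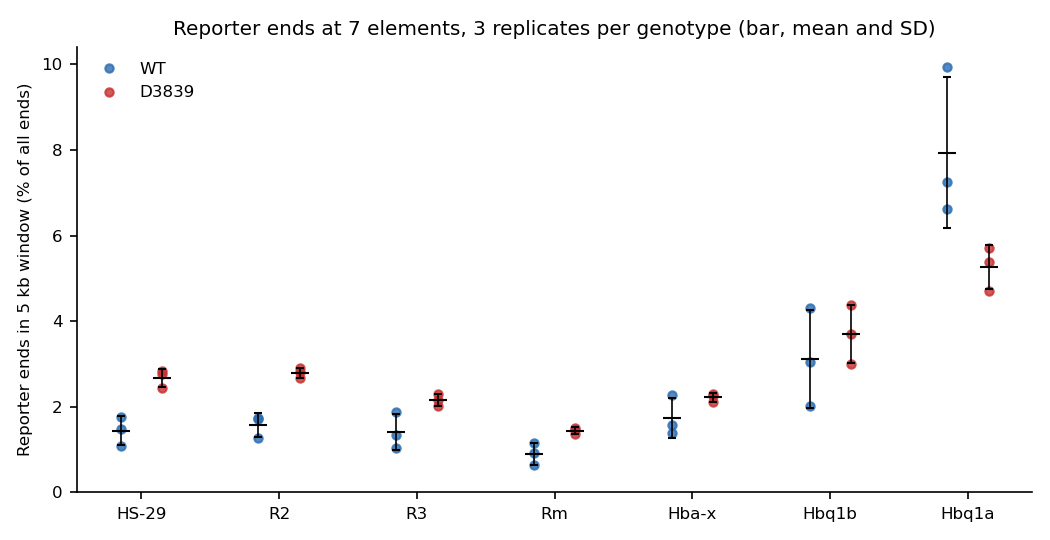
Percentage of reporter ends in the 5 kb window of each element, for the 3 WT (blue) and 3 D3839 (red) replicates, with mean and SD as black bars. The D3839 points lie above all WT points at HS-29, R2, R3 and Rm, overlap them at *Hba-x* and *Hbq1b*, and lie below them at *Hbq1a*.

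The decay of contacts with distance was followed on each side of the viewpoint, in classes counted from the edge of the excluded stretch. Upstream, toward *Rhbdf1* and *Snrnp25*, the 4 classes from 0 to 30 kb did not pass the test, with log2 fold changes between -0.22 and 0.02. With fragment pairs counted once, the class from 0 to 5 kb (0.25, adjusted p = 0.0315) and the class from 20 to 30 kb (-0.29, adjusted p = 0.0414) were called. The latter was also called without WT replicate 3 (-0.42, adjusted p = 0.0166) and was at -0.025 without WT replicate 1. The class from 30 to 40 kb, which covers part of *Il9r*, fell from 2.5% ± 0.599 to 1.46% ± 0.139 of ends (SD, n = 3, log2 fold change -0.78, edgeR adjusted p = 0.00806). The class from 40 to 55 kb fell from 1.84% ± 0.436 to 0.987% ± 0.0967 (SD, n = 3, log2 fold change -0.89, edgeR adjusted p = 0.00695). On the scale of all chromosome 11 contacts neither fall was called (log2 fold changes -0.27 and -0.39), and the classes from 0 to 20 kb rose, by 0.42 to 0.51. On the main scale both falls lost their call without D3839 replicate 1 (adjusted p = 0.0778 and 0.0648).

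Downstream, the first 2 classes, which reach from *Mpg* into the deleted sites, had log2 fold changes of 0.16 each and did not pass the test (adjusted p = 0.0778 and 0.104 from edgeR), although no WT replicate reached the lowest D3839 replicate. On the scale of all chromosome 11 contacts both rose, by log2 fold changes of 0.645 and 0.643 (adjusted p = 0.0012 each), and both were called when bins of 2 kb were used (adjusted p = 0.0286 and 0.0407). Both were called without WT replicate 2 as well (edgeR adjusted p = 0.0218 and 0.0424). The class from 0 to 5 kb was also called with same-bin pairs left out (0.0322) and without WT replicate 3 (0.0497). The class from 10 to 20 kb, from the second HS-38/-39 bin through HS-29, held 8.16%, 7.68% and 8.27% of ends in WT and 11.8%, 11.9% and 12.1% in D3839. The replicates of a genotype lay close together here, and the log2 fold change was 0.57 (SE 0.0768, edgeR adjusted p = 2.88e-04). The classes from 20 to 30 kb, with R2 and R3, and from 30 to 40 kb, with Rm, rose by log2 fold changes of 0.74 and 0.81 (adjusted p = 0.00211 and 0.00555 from edgeR), the second of which was not called without D3839 replicate 1 (adjusted p = 0.0766). From 40 to 60 kb, with *Hba-x*, *Hba-a1* and *Hbq1b*, the log2 fold change was 0.37 (edgeR adjusted p = 0.0905). It was 0.82 (adjusted p = 0.0206) on the scale of all chromosome 11 contacts, 0.18 without WT replicate 2 and 0.62 (adjusted p = 6.36e-04) without WT replicate 3.

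From *Hbq1a* on the direction turned. The 5 kb bin from 32193001, with *Hba-a2*, held 0.644% of ends per kb on average in both genotypes, and the bin from 32198001, with *Hbq1a*, 1.59% in WT and 1.05% in D3839. The latter is the *Hbq1a* window, which also reaches past that gene. Of its 52 fragments, 5 have a near copy in the region, and the part of such reads was not tested. The class from 60 to 80 kb, which holds *Hba-a2* and *Hbq1a*, had a log2 fold change of -0.31 (edgeR adjusted p = 0.0331). This value was 0.15 on the scale of all chromosome 11 contacts and ran from -0.42 to -0.18 with 1 replicate left out. The call was lost in 4 of 6 such fits, with TMM normalization (adjusted p = 0.06) and with DESeq2 (adjusted p = 0.0929). It was also lost with same-bin pairs left out (edgeR adjusted p = 0.0619) and with fragment pairs counted once (0.0694). The class from 80 to 100 kb held 9.97%, 10.7% and 9.16% in WT and 5.49%, 4.84% and 5.47% in D3839, a log2 fold change of -0.92 (SE 0.0959, edgeR adjusted p = 2.74e-05). The class from 100 to 122 kb fell by a log2 fold change of -0.97 (edgeR adjusted p = 0.00148). Both falls were also called on the scale of all chromosome 11 contacts, at log2 fold changes of -0.43 and -0.46 (adjusted p = 0.0192 and 0.0469).

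As a single measure of decay, the log2 of ends per kb was regressed on the log10 of distance. The upstream slope was -3.15, -3.05 and -3.69 per unit of log10 distance in WT and -4.28, -4.51 and -3.98 in D3839. All D3839 slopes were steeper than all WT slopes, with a mean difference of -0.964 (exact permutation test, two-sided, p = 0.1, the smallest p that 3 against 3 allow). The downstream slope was -2.02, -1.81 and -2.10 in WT and -3.19, -3.36 and -3.14 in D3839 (exact permutation test, two-sided, p = 0.1). This order depends on the range fitted. Over the first 55 kb downstream, a range picked with the first fits known, D3839 was shallower, at -3.76 ± 0.0172 against -4.26 ± 0.461 in WT (SD, n = 3 each, by exact permutation test, p = 0.1). The median downstream end lay 27.0, 23.0 and 40.0 kb from the viewpoint in WT and 17.0 kb in each D3839 replicate.

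**Figure D3:**
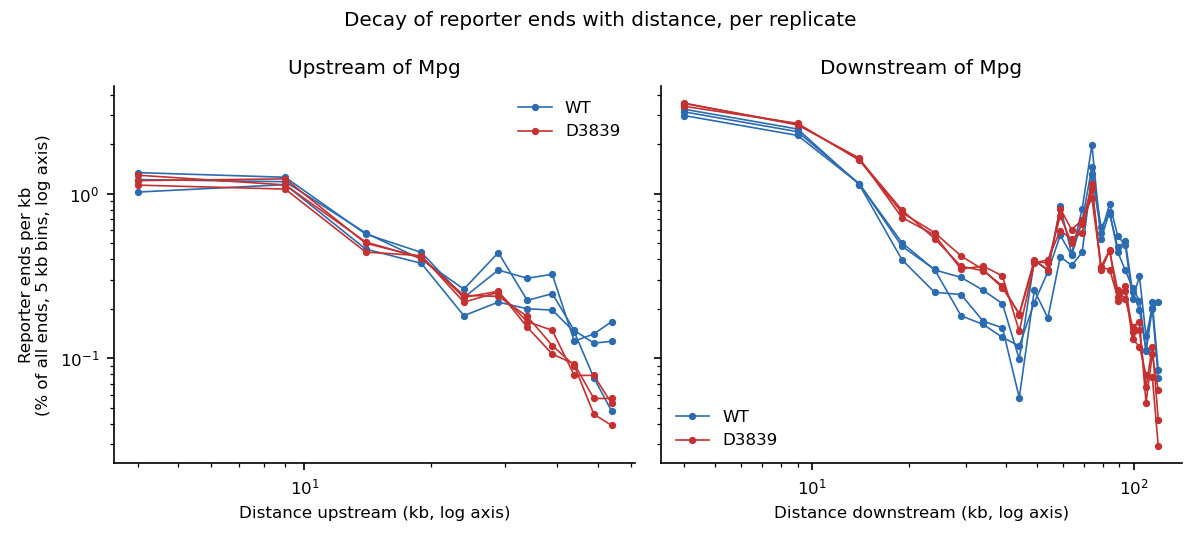
Reporter ends per kb, as a percentage of all ends in 5 kb bins, against the distance from the middle of the viewpoint stretch upstream (left) and downstream (right), both axes logarithmic, with a line for each of the 3 WT (blue) and 3 D3839 (red) replicates. Downstream, the D3839 lines lie above WT up to about the globin genes and below WT past *Hbq1a*. Upstream they lie below WT from about 34 to 44 kb and overlap with WT farther out.

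Each contact was also placed by the sides of its reporters. Contacts with both reporters upstream of the viewpoint were 18.5%, 19.9% and 15.7% of the matrix in WT and 15.4%, 13.8% and 14.6% in D3839. All D3839 shares lay below all WT shares (exact permutation test, two-sided, p = 0.1). Contacts with both reporters downstream were 70.4% ± 4.10 in WT and 72.3% ± 1.63 in D3839 (SD, n = 3 each, by exact permutation test, p = 0.5), and the groups overlapped. Contacts that bridge the viewpoint, with a reporter on each side, were 11.5% ± 2.02 in WT and 13.1% ± 2.13 in D3839 (SD, n = 3 each, by exact permutation test, p = 0.6), and the sign of that difference turned with same-bin pairs left out.

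Insulation was measured at every bin edge as the contacts across it, between the 10 bins before and the 10 bins after, over the contacts within one of these stretches. A low ratio means that reporters seen with *Mpg* are seldom joined across that edge. Among 161 edges, 12 had a higher ratio in D3839 (7.45%) and 1 a lower one (0.621%) by edgeR (interaction term, adjusted p under 0.05). Of the 12, 9 lie among the 17 edges between the viewpoint and R1, 2 are the edges of HS-29, at 32147001 and 32148001, and 1 lies upstream in *Rhbdf1*. Over all edges the median log2 fold change of the ratio was 0.15. The edgeR fit took the contacts across and on one side of each sample as separate columns, 12 in all. Limma on the log2 ratio, with a single value per sample, called 0 edges.

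The smallest p was at the edge from 32138001, inside the pair of deleted sites. Its ratio was 0.261, 0.198 and 0.239 in WT and 0.436, 0.453 and 0.413 in D3839. In WT the 3 replicates counted 264, 150 and 251 contacts across the edge against 1010, 759 and 1049 on one side, and in D3839 794, 854 and 722 against 1822, 1884 and 1748. The groups were well apart, with a log2 fold change of 0.90 (SE 0.16, edgeR adjusted p = 2.96e-04). This edge passed the threshold in each edgeR fit with 1 replicate left out, with log2 fold changes from 0.79 to 0.99, and with windows of 5 bins (1.28, adjusted p = 0.0262) and 20 bins (0.77, adjusted p = 4.25e-07). It did so with neighbouring fragments left out (0.70, adjusted p = 2.4e-04) as well, an alternative added with the other results known. With limma on the log2 ratio the log2 fold change here was 0.91 and the adjusted p 0.204. Limma called 0 edges in all, and 28 had an unadjusted p under 0.05. Blocking by replicate in limma gave an adjusted p of 0.281 here.

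**Figure D4:**
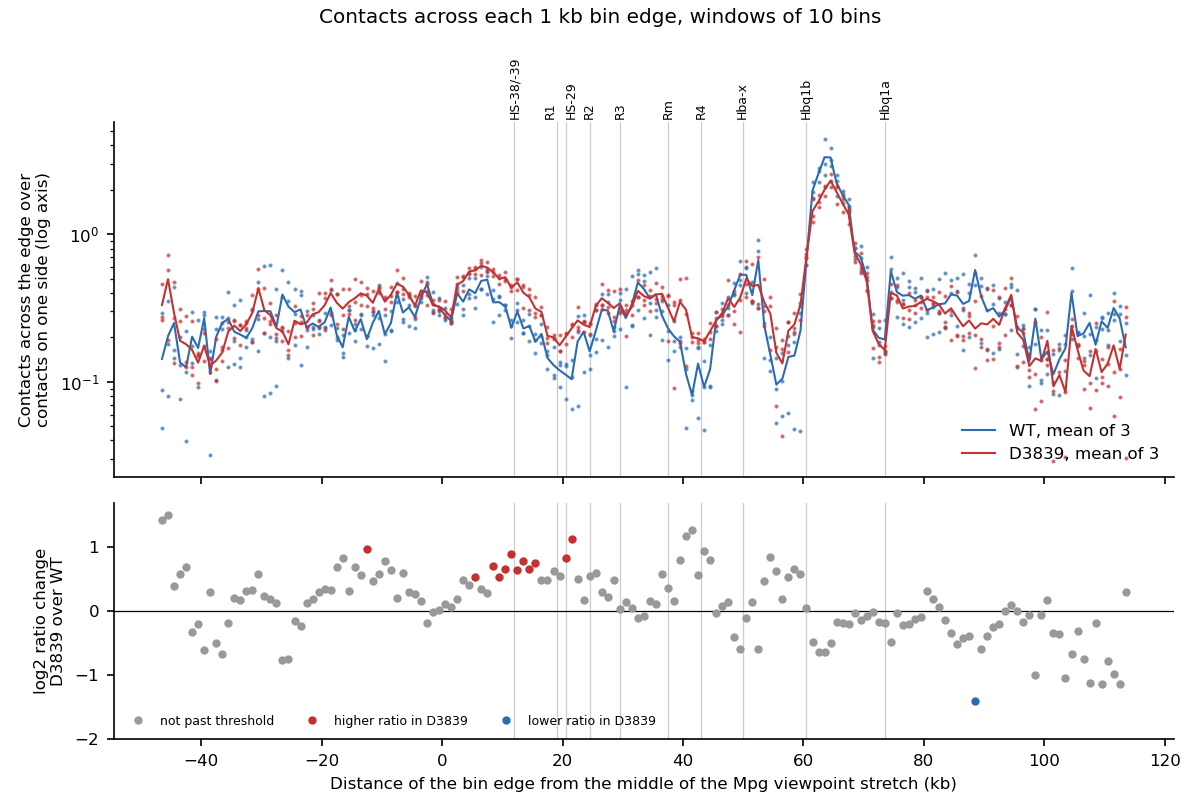
Contacts across each 1 kb bin edge over contacts on one side of it (upper plot, log axis; points are replicates, lines the means of 3, values of 0 not drawn) and log2 change of that ratio in D3839 over WT (lower plot), against the distance in kb from the middle of the viewpoint stretch. The 12 edges with a higher ratio in D3839 include the edges at HS-38/-39 and HS-29, and at the peak between the theta genes from 43.4% to 74.1% of the contacts across join fragments with near copies.

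Between the viewpoint and Rm, WT had its lowest mean ratio at 32148001, beside HS-29. The ratios there were 0.140, 0.0653 and 0.107 in WT, on 43, 16 and 35 contacts across, and 0.202, 0.242 and 0.246 in D3839. The log2 fold change was 1.13 (SE 0.291, edgeR adjusted p = 0.00941), and this call was lost in 3 of 6 fits with 1 replicate left out, with neighbouring fragments left out (adjusted p = 0.114) and with a window of 5 bins (1.00, adjusted p = 0.318). The call at 32147001 (log2 fold change 0.84, edgeR adjusted p = 0.0427) was lost in 5 of 6 such fits, with fragment pairs counted once (adjusted p = 0.154), with neighbouring fragments left out (0.57, adjusted p = 0.401) and with a window of 5 bins (adjusted p = 0.396). In D3839 the ratio there stayed below that at the deleted sites. At the edge of R1 (32145001) the ratio went from 0.130 ± 0.0356 in WT to 0.200 ± 0.00668 in D3839 (SD, n = 3, log2 fold change 0.63, edgeR adjusted p = 0.0971). It was called with a window of 20 bins (0.59, adjusted p = 0.00269) and without WT replicate 1 (0.87, adjusted p = 0.012).

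Inside the enhancer cluster the edges of R2, R3 and Rm did not pass the test, with log2 fold changes of 0.18, 0.04 and 0.36. That of Rm was 0.11 without WT replicate 2 and 0.78 without WT replicate 3. Between Rm and R4, at 32168001, just past the annotated start of *Nprl3*, WT had its lowest mean ratio, 0.0811 ± 0.00579, against 0.201 ± 0.0145 in D3839 (SD, n = 3). The replicates did not overlap, but with only 3, 4 and 9 contacts across in WT the adjusted p was 0.122 from edgeR. It was called with same-bin pairs counted on one side (1.63, adjusted p = 0.0189). The edges of R4, *Hba-x*, *Hbq1b* and *Hbq1a* also did not pass. The edge at 32114001, within *Rhbdf1*, a gene for an inactive rhomboid protein, rose from 0.194 ± 0.0176 to 0.384 ± 0.0513 (SD, n = 3, log2 fold change 0.97, edgeR adjusted p = 0.0143), and the one at 32132001, within *Mpg*, by 0.54 (edgeR adjusted p = 0.0343). With fragment pairs counted once, the log2 fold changes were 0.33 and 0.21, and with neighbouring fragments left out 0.80 and 0.29, and none of these was called. With a window of 20 bins the change at 32114001 was 0.00055 (adjusted p = 0.997). Leaving out 1 replicate lost the call in 4 of 6 fits at 32114001 and in 5 of 6 at 32132001.

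The only edge with a lower ratio, at 32215001 past the theta genes, went from 0.720, 0.453 and 0.545 in WT to 0.209, 0.355 and 0.124 in D3839 (log2 fold change -1.40, SE 0.391, edgeR adjusted p = 0.0172). It was not called in any of the alternative fits other than those without WT replicate 1, WT replicate 2 or D3839 replicate 2. In D3839 the lowest mean ratios at least 5 kb apart were at 32224001, 32230001 and 32236001, in the same flank. From 32188001 to 32194001, between *Hbq1b* and *Hba-a2*, 7 edges had ratios above 1 in both genotypes, up to a mean of 3.33 in WT and 2.31 in D3839. There, from 54.7% to 74.1% of the contacts across in the WT replicates and from 43.4% to 65.9% in D3839 joined fragments that both have a near copy in the region (at least 0.5 of their 20-base words found in another fragment). Which copy such reads came from is uncertain. Without such pairs the highest mean ratio was 1.32 in WT and 0.948 in D3839. The number of edges with a higher ratio was 21, 9 and 3 without WT replicate 1, 2 or 3 and 1, 1 and 11 without D3839 replicate 1, 2 or 3.

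Pairs among the 7 elements were counted next, each seen together with *Mpg*. None of the 21 pairs passed the threshold (0 of 21, against 2.49% of 482 pairs of 5 kb bins that rose and 2.7% that fell). On the scale of all chromosome 11 contacts 4 pairs passed. They included HS-29 with R2 (log2 fold change 1.24, edgeR adjusted p = 0.00214) and HS-29 with *Hba-x* (2.55, adjusted p = 0.00968). The others were HS-29 and R2 each with *Hbq1b* (edgeR adjusted p = 0.0449 and 0.0124). In edgeR 4 pairs had an unadjusted p under 0.05, and in DESeq2 2 did. Of the 21, 19 had a fold change above 1 in D3839, with a median log2 fold change of 0.78, where 52.5% of all 5 kb bin pairs had one above 1 and their median was 0.06. Pairs of elements share windows, so these counts are not independent. The elements run from HS-29 to *Hbq1a*, mostly in the stretch where 59 of 62 bins had a fold change above 1. The 5 kb bin pairs cover the whole region, so this excess cannot be told apart from the position of the elements. In 4 of the 21 all D3839 shares lay above all WT shares, as in 16.4% of the 5 kb bin pairs. Outside the 5 pairs with most contacts, the pairs had from 25 to 71 contacts over the 6 samples.

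HS-29 with R2, 3 kb apart and with overlapping windows, counted 101, 31 and 98 contacts in WT and 194, 184 and 169 in D3839. As shares these were 0.572% ± 0.255 and 0.991% ± 0.0476 (SD, n = 3), a log2 fold change of 0.78 (SE 0.293, edgeR adjusted p = 0.0734). The D3839 shares were all higher than in WT, and the change passed with a radius of 3 bins (adjusted p = 0.0169) and without WT replicate 1 (1.11, adjusted p = 0.0301), and the log2 fold change was 0.49 without WT replicate 2. The HS-29 window also covers R1 and part of the R2 window, so its pairs are not those of the CTCF site alone. HS-29 with *Hba-x* counted 1, 2 and 6 contacts in WT and 9, 26 and 20 in D3839. The log2 fold change was 2.13 (SE 0.786, edgeR adjusted p = 0.0734), the smallest unadjusted p of the 21 pairs, on 9 WT contacts in all. It passed with at least 30 counts required (adjusted p = 0.0472), with a radius of 3 bins (0.0169) and without WT replicate 3 (0.0402). HS-29 with R3 counted 6, 2 and 3 in WT and 16, 18 and 11 in D3839 (log2 fold change 1.49, edgeR adjusted p = 0.238), and passed with a radius of 3 bins (1.74, adjusted p = 0.0238).

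The enhancer pairs R2 with R3 and R3 with Rm were among those with most contacts. R2 with R3 counted 12, 9 and 21 contacts in WT and 22, 30 and 35 in D3839, and R3 with Rm counted 11, 11 and 9 in WT and 21, 23 and 25 in D3839. Their log2 fold changes were 0.58 and 0.60, with adjusted p = 0.555 and 0.586 from edgeR, and R3 with Rm turned to -0.20 with a radius of 1 bin. Measured against the mean of all 1 kb bin pairs equally far apart in that matrix, both lay below 1 on average, at 0.700 and 0.658 in WT and 0.652 and 0.634 in D3839. This expectation includes the bins near the viewpoint, and with bins at least 5 kb away from it only, the means were 1.09 in both pairs for WT and 1.07 and 1.16 for D3839.

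R2 with *Hbq1b* and HS-29 with *Hbq1b* each rest on 1 library. R2 with *Hbq1b* counted 3, 6 and 3 contacts in WT and 8, 48 and 6 in D3839, and HS-29 with *Hbq1b* 3, 4 and 6 in WT and 7, 40 and 5 in D3839. D3839 replicate 2 stood apart in both, with its contacts spread over 25 and 21 fragment pairs. Without it the log2 fold changes went from 1.79 to 0.21 and from 1.49 to -0.04.

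The theta promoters with each other formed the most contacted pair, with 107, 78 and 213 contacts in WT and 128, 192 and 142 in D3839 (log2 fold change -0.22, edgeR adjusted p = 0.693). From 69.0% to 73.1% of these contacts in WT and from 50.0% to 61.3% in D3839 joined fragments that both have a near copy. Relative to separation the pair lay at 7.72 ± 2.01 in WT and 5.33 ± 0.601 in D3839 (SD, n = 3 each, by exact permutation test, two-sided, p = 0.1). With the expectation from bins at least 5 kb from the viewpoint the means were 9.98 and 8.26, and the groups overlapped (exact permutation test, p = 0.2).

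**Figure D5:**
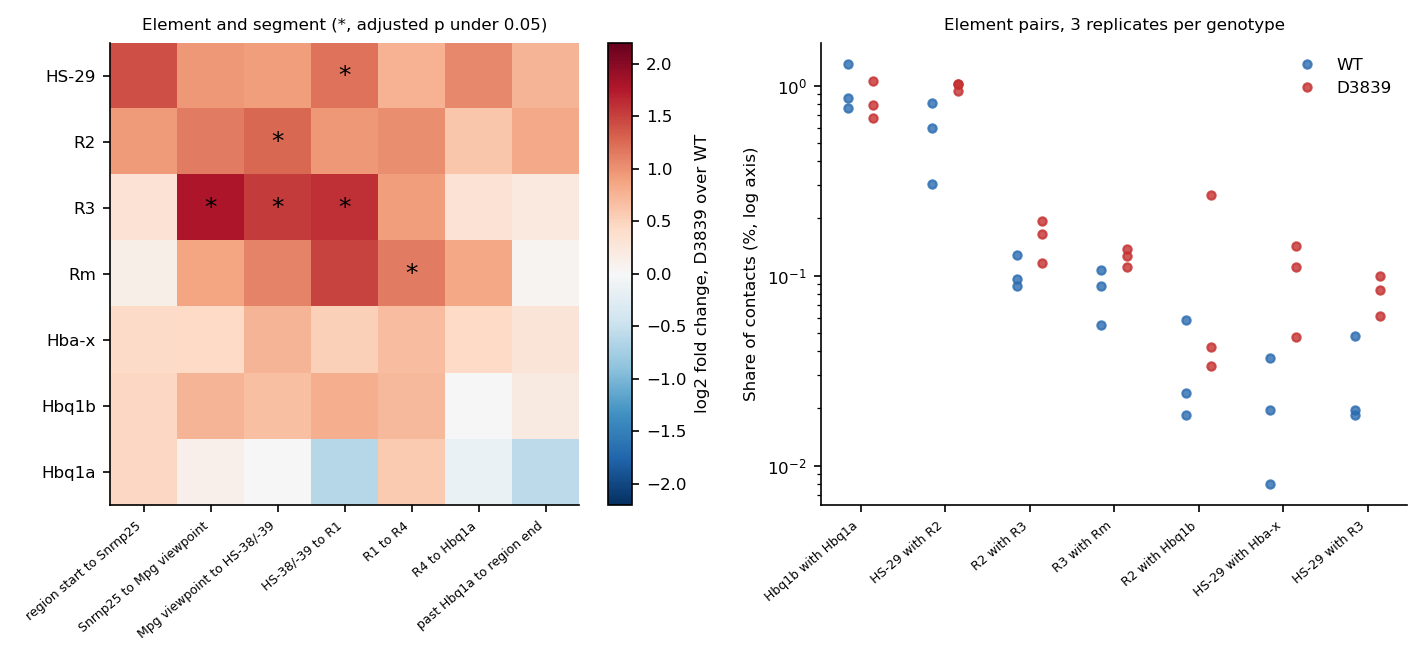
Log2 fold change of D3839 over WT for contacts of each element window with 7 segments of the region (left, stars mark an adjusted p under 0.05 in edgeR) and the share of all contacts, on a log axis, of the 5 element pairs with most contacts and of HS-29 with *Hba-x* and R3 (right, 3 WT replicates in blue, 3 D3839 replicates in red). The 6 starred sums join HS-29, R2, R3 or Rm to segments on the near side of R4, and in R2 with *Hbq1b* a single D3839 replicate stands above the rest.

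With whole segments as partners, counts were larger. Of 49 sums of an element window with 1 of 7 segments, 6 rose and 0 fell, and 44 had a fold change above 1. Of the 482 pairs of 5 kb bins, 2.49% rose, 2.7% fell and 52.5% had a fold change above 1. These pairs cover the whole region, whereas each sum joins a window from HS-29 to *Hbq1a* with a whole segment. The comparison is therefore between unlike sets, and the part of position in it was not tested. The number of sums that rose was 28 on the scale of all chromosome 11 contacts and 18 with a radius of 3 bins. It was 13 with fragment pairs counted once and 2 with DESeq2. Of the 6 that rose in the main fit, 3 belong to R3. With the segment from *Snrnp25* to the viewpoint, which holds *Rhbdf1*, R3 counted 5, 13 and 14 contacts in WT and 56, 59 and 43 in D3839. The groups lay far apart, with a log2 fold change of 1.77 (SE 0.48, edgeR adjusted p = 0.0104). This call was lost without WT replicate 1 (adjusted p = 0.0731), D3839 replicate 1 (0.0777) or D3839 replicate 2 (0.0837) and with a radius of 1 bin (0.056). With the segment from the viewpoint to HS-38/-39, R3 counted 23, 17 and 22 in WT and 65, 108 and 86 in D3839, a log2 fold change of 1.55 (SE 0.392, edgeR adjusted p = 0.00527). With the segment from HS-38/-39 to R1 the log2 fold change was 1.60 (edgeR adjusted p = 0.0243).

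R2 with the segment from the viewpoint to HS-38/-39 counted 19, 20 and 31 contacts in WT and 57, 84 and 96 in D3839 (log2 fold change 1.26, edgeR adjusted p = 0.0275). HS-29 with the segment from HS-38/-39 to R1 counted 45, 20 and 28 in WT and 116, 91 and 100 in D3839 (log2 fold change 1.20, edgeR adjusted p = 0.0243). The HS-29 window starts at the R1 bin, directly beside that segment. Rm with the segment from R1 to R4, which contains it, counted 19, 25 and 36 in WT and 93, 89 and 69 in D3839 (log2 fold change 1.14, edgeR adjusted p = 0.0471). All D3839 shares exceeded all WT shares in these sums. With 1 replicate left out, the call was lost in 5 of 6 fits for R2, in 5 of 6 for HS-29, in 6 of 6 for Rm and in 4 of 6 for R3 with the segment from HS-38/-39 to R1 (adjusted p = 0.0765 to 0.120 in those 4), and for Rm also with no filter on counts (adjusted p = 0.0543). Of the 6 sums, 4, those of R2, HS-29, Rm and of R3 with the segment from HS-38/-39 to R1, lost their call with TMM normalization and with same-bin pairs left out. The sum of R3 with the segment from the viewpoint to HS-38/-39 lost its call only without D3839 replicate 2 (adjusted p = 0.0837). Blocking by replicate gave adjusted p = 0.0658 for R2 and 0.0813 for Rm. The number of sums that rose was 3, 3 and 7 without WT replicate 1, 2 or 3 and 1, 0 and 2 without D3839 replicate 1, 2 or 3.

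Last, the partners of each element were expressed as shares of its own contacts outside its window, which does not depend on the scale of the matrix. For R3, 25.0%, 27.6% and 23.2% of partners lay on the *Mpg* side of HS-38/-39 in WT and 35.0%, 36.7% and 38.2% in D3839 (exact permutation test, two-sided, p = 0.1). Its partners between R4 and the end of *Hbq1a* made up 28.2%, 23.3% and 24.3% in WT and 14.6%, 18.0% and 13.6% in D3839 (exact permutation test, p = 0.1). These are shares of the partners of R3. As a part of the whole matrix, its contacts with that globin segment, at 35, 27 and 44 in WT and 55, 83 and 48 in D3839, were not lower (log2 fold change 0.31, edgeR adjusted p = 0.673). For R2 the share on the *Mpg* side went from 30.2% ± 1.63 in WT to 35.1% ± 2.25 in D3839 (SD, n = 3 each, by exact permutation test, p = 0.1), and for *Hbq1b* 19.2% ± 2.36 and 25.3% ± 1.90 (SD, n = 3 each, by exact permutation test, p = 0.1). In the *Hbq1b* window 11 of 30 fragments have a near copy in the region, and the part of such reads in its shares was not tested. *Hbq1a* had 16.9%, 17.3% and 15.5% of its partners upstream of the viewpoint in WT and 21.8%, 20.5% and 20.6% in D3839, again without overlap. On the *Mpg* side as a whole the genotypes overlapped for HS-29, Rm, *Hba-x* and *Hbq1a*, as in HS-29 with 40.7% ± 2.45 in WT and 39.6% ± 3.48 in D3839 (SD, n = 3 each, by exact permutation test, p = 0.8). In all, 21 such shares were compared by the exact permutation test, which cannot go below 0.1 with these replicates.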

How the data were processed

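The authors deposited, per replicate and viewpoint, counts of unique contacts for pairs of NlaIII fragments, not normalized. By the study's methods, alignment was done in the CCseqBasic pipeline, which also dropped duplicate reads, false ligations and fragments enriched by other probes. A separate script then kept reads with at least 2 reporters. The submitters' processing notes name Trim Galore, Bowtie and mm9. WT tables combine technical libraries.

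A contact went to the 1 kb bins of its fragment midpoints. Bins, element windows of 5 bins and distance classes were tested with edgeR 4.0.16 (R 4.3.3, quasi-likelihood test, at least 10 counts over 6 samples, library size the matrix total, Benjamini-Hochberg adjustment over all 198 rows), and element pairs, segment sums and 5 kb bin pairs over 552 rows. Insulation was the interaction of genotype and kind of contact in 161 edges, same-bin pairs left out. It was fitted on 12 columns, the contacts across and on one side in each of the 6 samples. Other measures were compared in scipy 1.17.1 by an exact permutation test, two-sided. The SE of a log2 fold change was derived from its test statistic. A fragment has a near copy where at least 0.5 of its 20-base words recur in another fragment of the region. Genes are from the GENCODE annotation of mm9, and the positions of the enhancers and CTCF sites were read from the study's locus map to the nearest kb. Slopes used 5 kb bins and 0.5 added to the ends per kb.

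Named bins were, per direction, the 10 of smallest p past the threshold whose groups did not overlap, all 7 windows and all 15 distance classes. Named edges were the 5 with the smallest p per direction at least 5 kb apart, the 3 lowest mean ratios per genotype and the edges of elements. Named pairs were the 5 with most contacts and the segment sums past the threshold. HS-29 with *Hba-x*, with *Hbq1b* and with R3 were added after their values were seen. The members, lists and tests were chosen with earlier results of these data known. Replicates are biological by the labels. Same-numbered replicates did not deviate together (correlations from -0.107 to 0.204 over bins). On simulated data, edgeR recovered 10 of 10 bins changed 2-fold among 198 rows with 2 false calls, 4 of 10 pairs changed 2-fold among 552 with 0, and 4 of 10 edges changed 2-fold among 161 with 0. The simulated counts were drawn independently, with the same fixed dispersion for all rows, which was not estimated from these data. The recovery and the false calls therefore do not measure power or error in the real contacts. Alternatives covered TMM and DESeq2 1.42.0, the scale of all chromosome 11 contacts, filters, bin and window sizes, same-bin pairs, single counting of fragment pairs, limma 3.58.1, the replicate block and each replicate left out.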

Additional observations from a re-analysis of the deposited data

How the results depend on the processing

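Counts of contacts limit the element pairs, of which the least contacted had 25 contacts over 6 samples, more than they limit the bins or distance classes, and shares of one matrix total are tied to each other. The number of 1 kb bins that rose, 18, was 11 with TMM and 63 on the scale of all chromosome 11 contacts, and ran from 3 to 33 with 1 replicate left out. The number that fell, 17, was 6 on that scale, 27 with DESeq2, 32 with each fragment pair counted once and ran from 2 to 36 with 1 replicate left out. The median log2 fold change of the bins moved from -0.12 to 0.36 on the scale of all chromosome 11 contacts. Edges with a higher ratio, 12, were 1 with a window of 5 bins, 6 with fragment pairs counted once, 4 without neighbouring fragments, 0 with limma and 0 with limma and the replicate block, and from 1 to 21 with 1 replicate left out. The 1 edge with a lower ratio became 0 in each of these other fits, with windows of 20 bins and with same-bin pairs on one side, and ran from 0 to 1 with 1 replicate left out. Element pairs past the threshold, 0, became 4 on the scale of all chromosome 11 contacts, 1 with at least 30 counts and 3 with a radius of 3 bins, and ran from 0 to 1 with 1 replicate left out. Segment sums that rose, 6, were 2 with TMM, with DESeq2, with same-bin pairs left out and without neighbouring fragments, 28 on the scale of all chromosome 11 contacts, 13 with fragment pairs counted once and 18 with a radius of 3 bins, and ran from 0 to 7 with 1 replicate left out. Segment sums that fell, 0, became 1 with DESeq2 and 1 with fragment pairs counted once.

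The downstream slope difference, -1.25, turned to 0.508 over the first 55 kb and was -1.31 to -1.17 with 1 replicate left out, and the upstream one, -0.964, was -1.16 to -0.839. The cause of these changes was not tested. Log2 fold changes that turned sign were, among distance classes, upstream 0 to 5 kb (-0.0945 with 3 more bins left out on each side of the viewpoint, -0.0844 to 0.109 with 1 replicate left out), upstream 5 to 10 kb (0.427 on the scale of all chromosome 11 contacts, 0.0038 with fragment pairs counted once), and on that scale upstream 10 to 20 kb (0.42), upstream 20 to 30 kb (0.28) and downstream 60 to 80 kb (0.153), whose fall of -0.31 was called. Among edges they were 32150001 (-0.66 with a window of 5 bins, -0.15 to 0.408 with 1 replicate left out), 32156001 (-0.53 with that window, -0.18 to 0.236), 32169001 (0.56, and -0.0492 with 20 bins), 32200001 (0.21 with 5 bins, 0.28 with same-bin pairs on one side, -0.317 to 0.0491 with 1 replicate left out) and 32224001 (0.23 with 5 bins, 0.0040 without neighbouring fragments, -0.321 to 0.11 with 1 replicate left out). Among pairs they were *Hbq1b* with *Hbq1a* (0.22 on the scale of all chromosome 11 contacts, -0.423 to 0.0499 with 1 replicate left out), R3 with Rm (0.60, and -0.20 with a radius of 1 bin, and an enrichment difference of 0.0691 with the far expectation) and HS-29 with *Hbq1b* (1.49, and -0.0403 to 1.92 with 1 replicate left out). The share of contacts that bridge the viewpoint differed by -0.896 percentage points without same-bin pairs and by -0.17 without neighbouring fragments.

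The replicate numbers come from the labels and did not pair the samples. A replicate block gave 13 bins that rose and 15 that fell and 4 segment sums that rose. Among windows and segment sums it cost the calls of the Rm window (log2 fold change 0.71, edgeR adjusted p = 0.0615) and of the R2 and Rm segment sums. For edges, limma called 0 with a higher ratio both without and with the block.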
